A study of Mus musculus with 8 samples.

Results

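Genes of DNA replication and mitosis were followed through 24 h of 17β-estradiol (E2), the main circulating estrogen, in the inguinal mammary gland of mice. The 52 genes were chosen by symbol, as 29 genes of the S phase machinery and 23 genes of mitosis or of proliferation. Of these, 51 had a probe set that the annotation table paired with a single gene (29 S phase and 22 M phase genes). The array held 18193 such genes. Ccnb1 had no such probe set, so its level was not analysed here, and it enters only the promoter search. At or above the 40th percentile of mean level (an intensity of 211) were 38 of the 51 (22 S phase and 16 M phase genes), which were tested among 10916 genes. The 13 genes below that level are given by their values only. Each gene was read from its brightest probe set, and 36 of the 51 genes had more than 1. In 18 of these 36 all probe sets had late means on the same side of the vehicle mean, and in 14 all had early means on the same side.

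The mice were virgin and gonadectomized (GDX), a surgery that removes the main source of sex steroids, and were 12 to 13 weeks old, with no strain named in the sources used here. GDX mice received E2 under the skin at 1, 3 or 6 h (early) or at 12, 18 or 24 h (late) before collection, with 1 array per time, and GDX mice given vehicle were measured on 2 arrays, both labelled 24 h. No E2 dose is stated, because the labels join a microgram and a milligram unit to the same number. The sample titles gave the times, whereas every sample's description reads 24 h. The labels do not say how many mice an array stands for. For 1 to 18 h, E2, the injection and the time of day cannot be told apart, since these times had no vehicle array of their own.

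A dividing cell loads the MCM helicase onto replication origins in G1, copies its DNA in S phase with polymerases, a sliding clamp and a supply of deoxynucleotides, and then separates the chromosomes in M phase under Cdk1, the cyclins and the spindle checkpoint. Transcripts of S phase genes are known to be driven by E2F factors, and those of M phase genes by a later complex that reads the cell cycle homology region (CHR) together with CCAAT boxes, so the level of both sets is a common readout of how many cells in a tissue are cycling. In the mammary gland, estrogen is known as a stimulus of epithelial proliferation, in part through signals passed between neighbouring cells.

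These promoter elements were searched in RefSeq windows (assembly GRCm38.p6) that reach from 250 bases before to 50 after a gene's start. Windows were matched by symbol for 22 of the 29 S phase genes (26 windows) and for 19 of the 23 M phase genes (20 windows). An E2F element, spelled TTTCCCGC, TTTCGCGC, TTTGCCGC or TTTGGCGC on either strand, stood in 10 of the 26 S phase windows (38.5%) and in 1 of the 20 M phase windows (5.0%), against 2.26% of all 32851 windows. A CHR, spelled TTTGAA or TTCGAA on either strand, stood in 5 of 26 S phase windows (19.2%) and 15 of 20 M phase windows (75.0%), against 19.2% of all windows. The CCAAT box (CCAAT on either strand) was in 53.8% of S phase windows and 85.0% of M phase windows, against 37.4% of all windows. An estrogen response element spelled GGTCANNNTGACC was in 0 windows of either set (0.0%) and in 23 of all windows (0.07%). A match of letters is a description of the window and says nothing of which factor binds there.

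The windows of 3 genes are printed, with capitals where an element matched, because they belong to the gene with the largest distance from vehicle (Mad2l1), to a widely used proliferation marker (Mki67) and to a helicase subunit with E2F and CCAAT matches (Mcm5). Positions are counted from the start site, so that the last base before it is -1. The Mad2l1 window (chr6:66534971-66535270, plus strand) held no match of any of the 4 elements. The Mki67 window (chr7:135716330-135716629, minus strand) held the CHR letters TTTGAA from -116 and from -98, and CCAAT boxes on either strand from -188, -166 and -141. The Mcm5 window (chr8:75109259-75109558, plus strand) held overlapping E2F matches, TTTCGCGC from -153 to -146 and GCGCCAAA, the reverse strand of TTTGGCGC, from -149 to -142, and CCAAT boxes from -77, -22 and 7.
Mad2l1: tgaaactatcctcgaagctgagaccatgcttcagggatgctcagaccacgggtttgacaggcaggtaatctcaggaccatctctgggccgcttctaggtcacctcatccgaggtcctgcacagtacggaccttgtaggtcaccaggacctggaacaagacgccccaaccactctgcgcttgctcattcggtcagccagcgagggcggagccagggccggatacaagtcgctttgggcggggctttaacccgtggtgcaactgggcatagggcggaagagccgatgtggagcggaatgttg
Mki67: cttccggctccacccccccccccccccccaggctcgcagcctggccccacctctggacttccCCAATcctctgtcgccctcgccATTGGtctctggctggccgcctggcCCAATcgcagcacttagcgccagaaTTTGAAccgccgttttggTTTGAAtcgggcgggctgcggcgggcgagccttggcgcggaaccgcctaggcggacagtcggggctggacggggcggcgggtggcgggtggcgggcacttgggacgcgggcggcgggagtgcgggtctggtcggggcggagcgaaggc
Mcm5: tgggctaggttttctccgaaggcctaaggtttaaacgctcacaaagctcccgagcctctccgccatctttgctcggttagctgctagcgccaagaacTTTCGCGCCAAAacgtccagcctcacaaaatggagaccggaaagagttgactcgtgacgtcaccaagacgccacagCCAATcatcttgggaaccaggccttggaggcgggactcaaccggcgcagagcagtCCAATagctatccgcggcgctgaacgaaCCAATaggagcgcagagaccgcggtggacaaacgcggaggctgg

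Levels of the replication and mitosis genes stayed close to vehicle throughout the day, with Mad2l1 at 3 h as the exception. Over the 6 E2 arrays the 51 genes gave 306 values, of which 1 was farther than 0.32 on the log2 scale from each vehicle array, and that value was Mad2l1 at 3 h. Of the 348 values of the dimmer probe sets, 2 were that far, Rfc1 at 24 h (-0.46 from the vehicle mean) and Top2a at 6 h (0.41), on sets with mean intensities of 81.1 and 62.2. Among all tested genes, 1.43% of the values were that far from vehicle, and 5.24% of the genes were so on at least 1 E2 array. Against vehicle 2 alone, 9 member values were that far, and against vehicle 1 alone 1 was, with no share of all tested genes counted for either. Within 0.2 of the vehicle mean on the log2 scale were 94.8% of the member values and 91.6% of the values of all tested genes. Without Mad2l1, the largest distance of the other 50 genes was 0.32, for Pola1 at 24 h. For scale, the vehicle arrays differed from each other by a median of 0.08 over the members, and the log2 difference between them had an SD of 0.13 across all tested genes. This is bulk tissue, so fewer cycling cells and less RNA per cycling cell cannot be told apart.

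**Figure D1:**
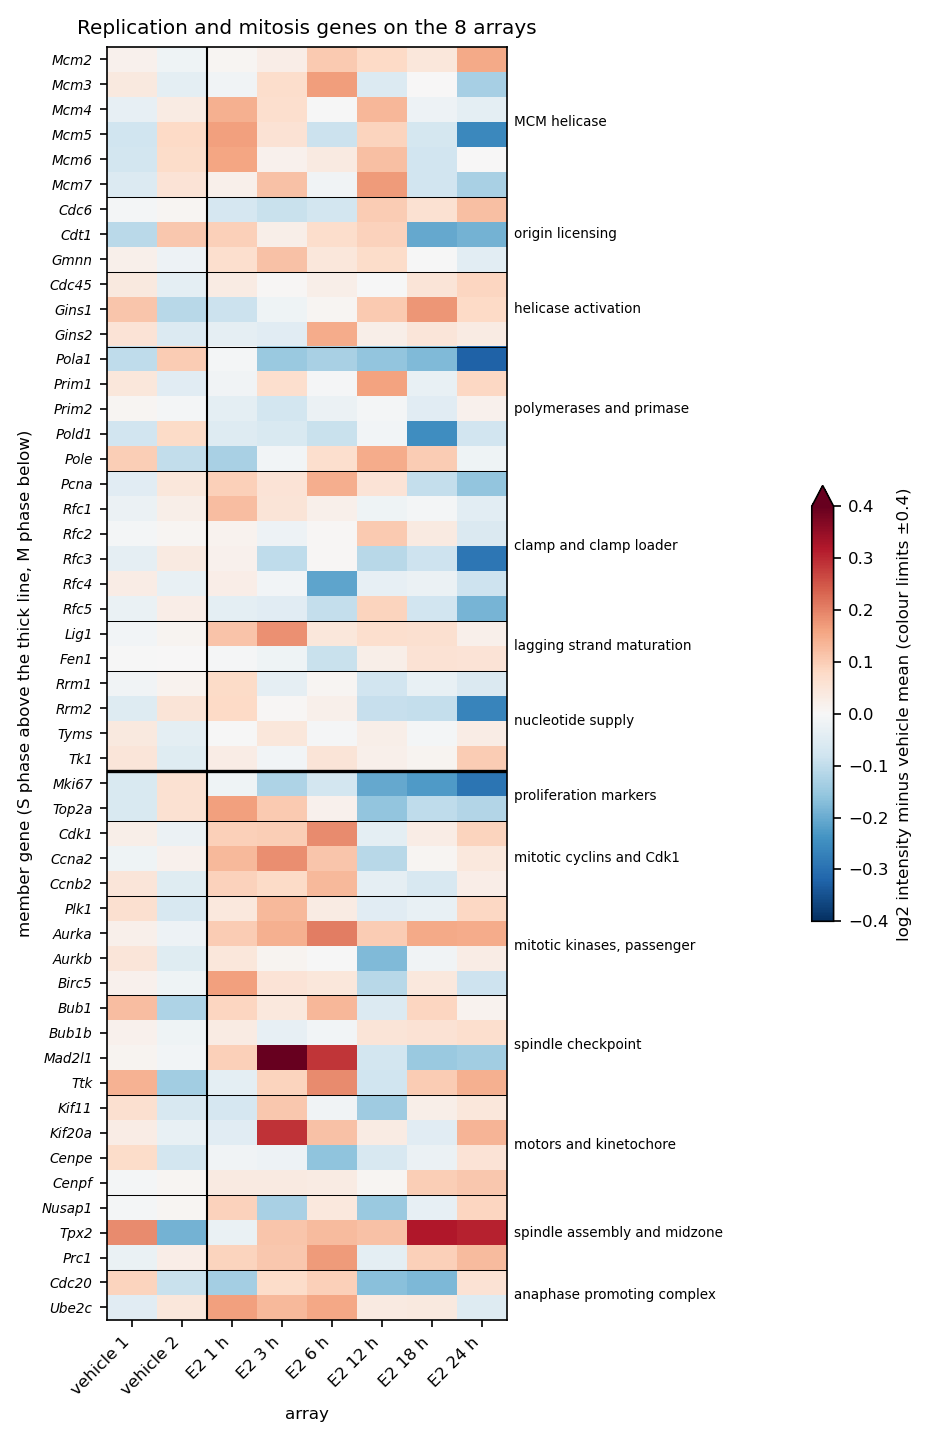
Each row is 1 of the 51 measured genes, grouped by role, each column is 1 array, and colour gives log2 intensity minus the mean of the vehicle arrays, limited to 0.4 on either side. Mad2l1 at 3 h (1.10) runs past the colour limit, and the 300 values of the other 50 genes stay within 0.32 of the vehicle mean.

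Linear models in limma set the early E2 arrays (1, 3 and 6 h, n = 3) and the late ones (12, 18 and 24 h, n = 3) as windows against vehicle (n = 2). No member passed an adjusted p of 0.05 (Benjamini-Hochberg over 10916 genes) in limma in the early or the late window, where 0.0% of all tested genes passed in either. The smallest adjusted p of a member in limma was 0.851 in the early window and 0.634 in the late window. At an unadjusted p below 0.05 in limma, 2 members were higher (Ccna2 and Ube2c) and 0 lower in the early window (background 3.64% and 1.74%), and 1 was higher (Tpx2) and 2 were lower (Mki67 and Pola1) in the late window (background 2.8% and 4.8%). The late window's limma differences of tested S phase genes ran from -0.22 to 0.09, and their 95% intervals from -0.41 at the lowest to 0.22 at the highest. For tested M phase genes the same differences ran from -0.24 to 0.25, with intervals between -0.63 and 0.49. Nothing in the labels says that arrays came from separate mice, so p-values measure no more than how these arrays vary, and that variation may be technical. In the window fits it also includes differences between the times within a window, so a change at 1 time widens a gene's intervals. The interval end of -0.63 was that of Mad2l1, whose late difference was -0.12.

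Mad2l1 encodes the checkpoint protein Mad2, which holds back anaphase by binding Cdc20 until every chromosome is attached. Its intensity was 483, 969.6, 552, 429.9, 408 and 411 on the E2 arrays, in order of time, against 455 and 449 on the vehicle arrays. The 3 h array stood far above all others, the 6 h array second, and the 3 late arrays lay below both vehicle arrays. At 3 h the level was 2.14-fold the vehicle mean, or 1.09 and 1.11 above the separate vehicle arrays on the log2 scale, and at 6 h it was 1.22-fold. Of the tested genes, 15 were at least 2-fold above both vehicle arrays at 3 h (0.137%), and Mad2l1 ranked number 13 among all rises at that time. A limma fit with 7 group means, which has 1 residual degree of freedom and assumes that a lone array varies as the vehicle arrays do, gave a difference of 1.10 (95% interval 0.91 to 1.30) and an adjusted p of 0.0089 at 3 h, where it called 0.595% of all genes. At 6 h the same limma fit gave 0.29 (0.09 to 0.48) with an adjusted p of 0.389. The value rests on 1 probe set and 1 array, with no replicate at that time.

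The other checkpoint genes had no such value at 3 h. Bub1b (BubR1, a part of the same inhibitory complex) had 265, 253, 257, 268, 269 and 271 on the E2 arrays in order of time, against 262 and 256 on the vehicle arrays. In this brightest set the late arrays lay just above both vehicle arrays, by 0.05 to 0.07 over the vehicle mean on the log2 scale. The second brightest set of Bub1b read 0.16, 0.28 and 0.01 on the late arrays in order of time. The dimmest read -0.09, -0.02 and 0.07 there and 0.20 at 3 h, so the sets disagree. Bub1 and Ttk, the kinases that start checkpoint signalling, were below the level tested. At 3 h they lay 0.04 and 0.09 over the mean of vehicle, with vehicle arrays that themselves stood 0.12 and 0.14 to either side of it.

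**Figure D2:**
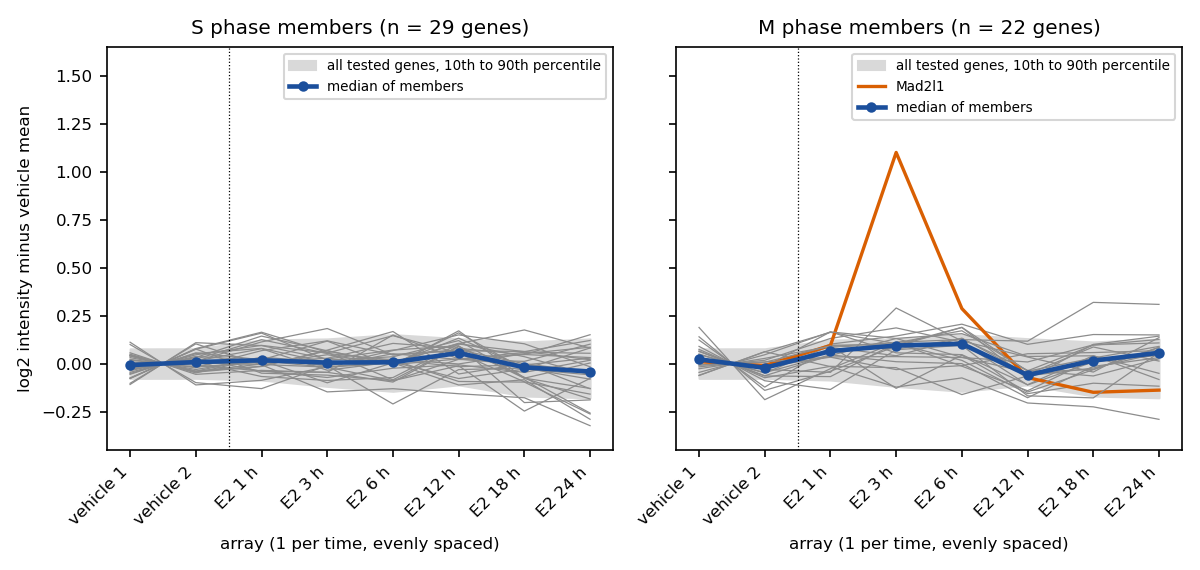
Thin grey lines are the measured genes of each set over the 8 arrays (log2 intensity minus vehicle mean, array times evenly spaced), the blue line is their median and the grey band the 10th to 90th percentile of all tested genes. Mad2l1, in orange, reached 1.10 at 3 h, whereas the S phase median stayed between -0.04 and 0.06 and the M phase median between -0.06 and 0.10 on the E2 arrays.

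Among the S phase genes, the 6 MCM helicase subunits were read first, since their transcripts are classical E2F targets. Mcm2 had 781, 793, 837, 822, 804 and 863 on the E2 arrays in order of time, against 788 and 768 on the vehicle arrays. All 3 late arrays and the 3 and 6 h arrays were above both vehicle arrays, by a limma late difference of 0.09 (95% interval -0.03 to 0.21, adjusted p 0.659). Its second probe set read -0.10 at 18 h and -0.08 at 24 h on the log2 scale, below both vehicle arrays, so the 2 sets disagree at these times. Mcm5 had 382, 355, 321, 363, 324 and 285 on the same arrays, against 323 and 359.8 in vehicle. The 24 h array was the lowest of the 8, and the 1 h array was the highest. Its second brightest probe set also was lowest at 24 h, at -0.30 from the vehicle mean on the log2 scale, while the dimmest of the 3 sets read 0.16 there. In their brightest sets Mcm3, Mcm4, Mcm6 and Mcm7, the other measured subunits, lay between -0.13 and 0.17 from the vehicle mean on the log2 scale on all E2 arrays. Other sets went farther, for example 1 of Mcm4 at -0.27 at 6 h and -0.24 at 24 h. A set of Mcm6 read -0.27 at 6 h, and 1 of Mcm3 read 0.23 at 1 and 6 h. The median of the 6 subunits was 0.08, 0.06, 0.02, 0.10, -0.05 and -0.08 over the 6 times on the log2 scale, and 0 of 6 passed the limma test in any comparison.

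Loading and activation of the helicase gave values of the same size. Cdt1, which brings the helicase to origins, had 477, 455, 469.7, 477, 389 and 392 on the E2 arrays in order of time, against 415 and 482 in vehicle. The 18 and 24 h arrays lay below both vehicle arrays, which were far apart. Cdc6, its loading partner, was below the level tested and had 50.7, 49.96, 50.5, 57.0, 55.5 and 57.7 on E2 arrays and 52.8 and 53.4 on vehicle arrays, with early arrays below and late arrays above vehicle. Cdc45, which joins the helicase when an origin fires, had 213, 209, 212, 208, 216 and 221 on E2 arrays, against 214 and 203 on vehicle arrays. The E2 values of Cdc45 crossed the vehicle range only at 18 and 24 h, by no more than 0.05 on the log2 scale above the higher vehicle array. Gmnn, the inhibitor of Cdt1, Gins1 and Gins2 of the active helicase kept within 0.18 of the vehicle mean on the log2 scale.

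At the replication fork, Pola1, the catalytic subunit of polymerase alpha, had the largest distance of any S phase gene. It had 229, 208, 210.0, 206, 203 and 184 on the E2 arrays in order of time, against 214 and 247 on the vehicle arrays. Every E2 array from 3 h on was below both vehicle arrays, and the 24 h array was the lowest. The limma late difference was -0.22 (95% interval -0.41 to -0.03, adjusted p 0.634). Its other, dimmer probe set read -0.01 at 24 h on the log2 scale, so the 2 sets disagree. In their brightest sets, the primase subunits Prim1 and Prim2 stayed within 0.16 of the vehicle mean, and Pold1, the catalytic subunit of polymerase delta, was lowest at 18 h, at -0.25 on the log2 scale. The second set of Pold1 read -0.04 there and 0.28, 0.15 and 0.16 at 1, 3 and 6 h, where the brighter one read -0.05, -0.06 and -0.09. Pole, of polymerase epsilon, was below the level tested and lay between -0.13 and 0.15.

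Pcna, the sliding clamp, had 2814, 2737, 2914, 2737, 2467 and 2359 on the E2 arrays in order of time, against 2552 and 2719.5 on the vehicle arrays. The early arrays lay above both vehicle arrays and the 18 and 24 h arrays below both, with limma differences of 0.10 (95% interval -0.05 to 0.25, adjusted p 0.952) in the early window and -0.07 (-0.22 to 0.09, adjusted p 0.767) in the late window. Of the clamp loader, Rfc3 was below the level tested and had 169, 156, 167, 155, 157 and 137 on the E2 arrays, against 163 and 171 on the vehicle arrays. The 24 h array of Rfc3 was the lowest, at -0.29 on the log2 scale, and its second probe set read 0.04 there. The remaining loader subunits Rfc1, Rfc2, Rfc4 and Rfc5 lay between -0.21 and 0.12 on the log2 scale in their brightest sets. The dimmest of the 3 sets of Rfc1 read -0.30 at 18 h and -0.46 at 24 h, against -0.01 and -0.04 in the brightest.

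On the lagging strand, Lig1, the ligase that joins Okazaki fragments, had 479, 502, 457, 464, 462 and 449 on the E2 arrays in order of time, against 439 and 446 on the vehicle arrays. Every E2 array was above both vehicle arrays, with limma differences of 0.11 (95% interval -0.01 to 0.24, adjusted p 0.909) in the early and 0.05 (-0.07 to 0.17, adjusted p 0.786) in the late window. Fen1, which trims the ends of Okazaki fragments, had 5182, 5134, 4887, 5280.2, 5416 and 5397 on E2 arrays and 5191 and 5208 on vehicle arrays. Its early arrays lay below both vehicle arrays and its late arrays above both, by at most 0.09 on the log2 scale, and its second probe set gave the opposite signs (0.04 early and -0.06 late).

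Rrm2 is the regulated subunit of ribonucleotide reductase, which makes deoxynucleotides, and its transcript is known to peak in S phase. It had 389.9, 370.4, 374, 346, 345 and 308 on the E2 arrays in order of time, against 356 and 383 on the vehicle arrays. The early arrays overlapped vehicle, and the 3 late arrays were below both vehicle arrays, with the 24 h array lowest. The limma difference was -0.15 (95% interval -0.30 to 0.00, adjusted p 0.648) in the late window, and all 3 probe sets of the gene lay below the vehicle mean at 24 h, at -0.26, -0.19 and -0.18 on the log2 scale. In its brightest set the partner subunit Rrm1 also lay below both vehicle arrays at 12, 18 and 24 h, by at most 0.08 under the vehicle mean on the log2 scale. The second brightest set of Rrm1 read -0.03, 0.04 and 0.01 there, between its vehicle arrays. The dimmest set of Rrm1 was above the vehicle mean at all 3 times, so the sets disagree. Tyms and Tk1, of thymidylate supply, stayed within 0.10 in their brightest sets.

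Of the M phase genes, the proliferation markers are given first. Mki67, which encodes the chromosome coat protein Ki-67, had 470.2, 437, 451, 412, 407 and 389 on the E2 arrays in order of time, against 455 and 496 on the vehicle arrays. The 3 late arrays were the lowest of the 8 and did not overlap vehicle. Its limma late difference was -0.24 (95% interval -0.37 to -0.11), with an adjusted p of 0.634, and for the 18 and 24 h arrays alone it was -0.26 with an adjusted p of 0.293. Top2a, the topoisomerase that untangles chromosomes before they part, had 359.9, 345, 325, 288, 299 and 296 on the E2 arrays, against 308 and 335 on the vehicle arrays. Its late arrays also lay below both vehicle arrays, its 1 and 3 h arrays above both and its 6 h array between them. The dimmest of its 3 probe sets read 0.11, 0.11 and 0.12 on the late arrays and 0.41 at 6 h.

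The 18 and 24 h arrays were also set against vehicle on their own (n = 2 each), as the last times of the day that was followed. In limma 0 of 38 members and 0.0% of all tested genes passed, with 0.293 as the smallest adjusted p of a member, that of Mki67. At an unadjusted p below 0.05 in limma, 1 member was higher (Tpx2, background 3.53%) and 4 were lower (Mki67, Pola1, Rrm2 and Cdt1, background 10.3%). The highest 95% interval reached 0.23 for an S phase gene and 0.57 for an M phase gene. In the limma fit of single times, 0 members passed at 1, 6, 12, 18 or 24 h, where 0.0641%, 0.366%, 0.0366%, 0.0% and 0.0% of all genes were called.

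Cdk1, the kinase that drives entry into mitosis, had 524, 525, 559, 477, 500.3 and 522 on the E2 arrays in order of time, against 499 and 482 on the vehicle arrays. All 3 early arrays were above both vehicle arrays, as the 18 and 24 h arrays were, and the 12 h array was below both. Ccna2, cyclin A, had 608, 632, 599.7, 514, 559 and 572 on E2 arrays, against 549 and 562 on vehicle arrays, again with high early arrays and the lowest value at 12 h. Its limma early difference was 0.14 (95% interval 0.01 to 0.27, adjusted p 0.88). Ccnb2, a B-type cyclin, lay between 0.08 and 0.13 above the vehicle mean on the 3 early arrays and within 0.06 of it on the late ones, on the log2 scale.

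Birc5 (survivin), which belongs to the chromosomal passenger complex, had 259, 239.6, 238, 214, 237 and 218 on the E2 arrays in order of time, against 233 and 228 on the vehicle arrays. Early arrays were above vehicle, while the 12 and 24 h arrays were below and the 18 h array above. Cdc20, the activator of the anaphase promoting complex, had 250.0, 289, 293, 244, 243 and 286 on E2 arrays, against 292 and 258 on vehicle arrays. These vehicle arrays were 0.18 apart on the log2 scale. The dimmer sets of Cdc20 read 0.09 and 0.04 at 1 h and 0.19 and 0.04 at 18 h. The brightest read -0.13 and -0.18 at these times, so the sets disagree. At 12 h the brightest read -0.17 and the dimmer sets 0.04 and -0.12. Ube2c, the ubiquitin-conjugating enzyme of the anaphase promoting complex, had a limma early difference of 0.15 (95% interval 0.02 to 0.28, adjusted p 0.851), and its late difference was 0.01. Plk1, Aurka and Aurkb, the mitotic kinases, lay between -0.18 and 0.21 on the log2 scale over all E2 arrays in their brightest sets. The dimmer set of Aurkb read -0.24 at 12 h.

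On the spindle, Tpx2, which activates Aurora A on microtubules, had 395, 434, 438, 436, 501 and 498 on the E2 arrays in order of time, against 458 and 353 on the vehicle arrays. The 18 and 24 h arrays were above both vehicle arrays, but the vehicle arrays themselves were 0.38 apart on the log2 scale, the widest pair of any member. Its limma late difference was 0.25 (95% interval 0.01 to 0.49, adjusted p 0.648), and its 3 dimmer probe sets read 0.06 to 0.12 at 24 h, against 0.31 for the brightest. Kif20a, a kinesin of the central spindle, was below the level tested and had 58.4, 73.7, 65.4, 61.7, 58.5 and 66.2 on E2 arrays, against 61.6 and 59.0 on vehicle arrays, with its highest value on the 3 h array (0.29 on the log2 scale). Cenpf, a kinetochore protein, had 280.0, 280.3, 279, 275, 292 and 295 on E2 arrays and 272 and 275 on vehicle arrays, and its 18 and 24 h arrays were the highest. Prc1, Nusap1, Kif11 and Cenpe kept within 0.17 of the vehicle mean on the log2 scale in their brightest sets. The second brightest set of Kif11 read -0.26 at 12 h, and the dimmer set of Nusap1 read -0.23 at 3 h.

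The genes were also counted by their position relative to both vehicle arrays. The 3 early arrays lay above both vehicle arrays for 9 of the 22 measured M phase genes and 3 of the 29 S phase genes. Of the tested ones these were 8 of 16 and 2 of 22, with 13.7% of all tested genes doing so. The early arrays lay below both vehicle arrays for 0 M phase genes and 4 S phase genes (Cdc6, Prim2, Rfc5 and Fen1, of which 3 were tested), with a background of 6.23%. The 8 tested M phase genes were Cdk1, Ccna2, Ccnb2, Birc5, Mad2l1, Cenpf, Prc1 and Ube2c, of which 7 lay within 0.19 of the vehicle mean on every early array. The median of the fitted early differences was 0.08 on the log2 scale over the 22 M phase genes, 0.02 over the 29 S phase genes and 0.01 over all tested genes, and without vehicle 2 the M phase value was 0.03. Of the 16 tested M phase genes, 11, 10 and 10 were above both vehicle arrays at 1, 3 and 6 h, and 1, 3 and 2 were below both (background 39.7%, 35.0% and 38.6% above, and 22.1%, 28.6% and 30.3% below). At 12 h there was 1 tested M phase gene above both vehicle arrays and there were 9 below both (background 37.9% and 25.2%). At 18 h there were 6 above and 6 below (background 27.2% and 44.2%), and at 24 h 8 above and 5 below (background 29.0% and 46.4%).

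Of the 22 tested S phase genes, 11 were above both vehicle arrays at 12 h and 4 below (background 37.9% and 25.2%), and 7 were above and 13 below at 24 h (background 29.0% and 46.4%). At 1, 3, 6 and 18 h, 9, 8, 6 and 5 were above and 3, 6, 6 and 10 below. The background at these times was 39.7%, 35.0%, 38.6% and 27.2% above, and 22.1%, 28.6%, 30.3% and 44.2% below. The median over all 29 S phase genes was 0.06 at 12 h and -0.04 at 24 h on the log2 scale, and the median of all tested genes was 0.01 and -0.02. The late arrays lay above both vehicle arrays for 3 of the 22 tested S phase genes (Mcm2, Lig1 and Fen1) and 1 of the 16 tested M phase genes (Bub1b), and below both for 3 S phase genes (Pola1, Rrm1 and Rrm2) and 3 M phase genes (Mki67, Top2a and Mad2l1), beside a background of 11.1% above and 13.3% below. Of the genes below the level tested, Cdc6 and Aurka lay above and Rfc3 below.

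The late window was also set against the early window, a difference that does not use the vehicle arrays. In limma 0 of 38 members passed and 0.55% of all tested genes did (60 genes), and the smallest adjusted p of a member was 0.115, that of Top2a. At an unadjusted p below 0.05 in limma, 0 members were higher and 10 lower, 7 of them M phase genes, beside a background of 5.5% higher and 13.6% lower. Top2a differed by -0.22 (95% interval -0.35 to -0.09), and Mad2l1 by -0.61 (-1.07 to -0.16, adjusted p 0.172 in limma). Ccna2, Birc5, Ube2c, Ccnb2, Mki67, Rrm2, Pcna and Mcm3 made up the rest, with differences of -0.12 to -0.19. Late arrays lay wholly below early arrays for 8 of 16 tested M phase genes and 3 of 22 tested S phase genes, and wholly above for 1 of each (background 15.0% below and 8.96% above among tested genes). The medians were -0.07 for M phase genes, -0.05 for S phase genes and -0.03 for all tested genes on the log2 scale. Both signs changed in some fits. The M phase median was 0.06 with luminal markers as a covariate. The S phase median was 0.02 with B lymphocyte markers as a covariate and 0.01 without the 18 h array. Luminal and B lymphocyte markers themselves differed between the windows, with medians of 0.27 and -0.27 on the log2 scale. These covariates are therefore in part confounded with the comparison.

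**Figure D3:**
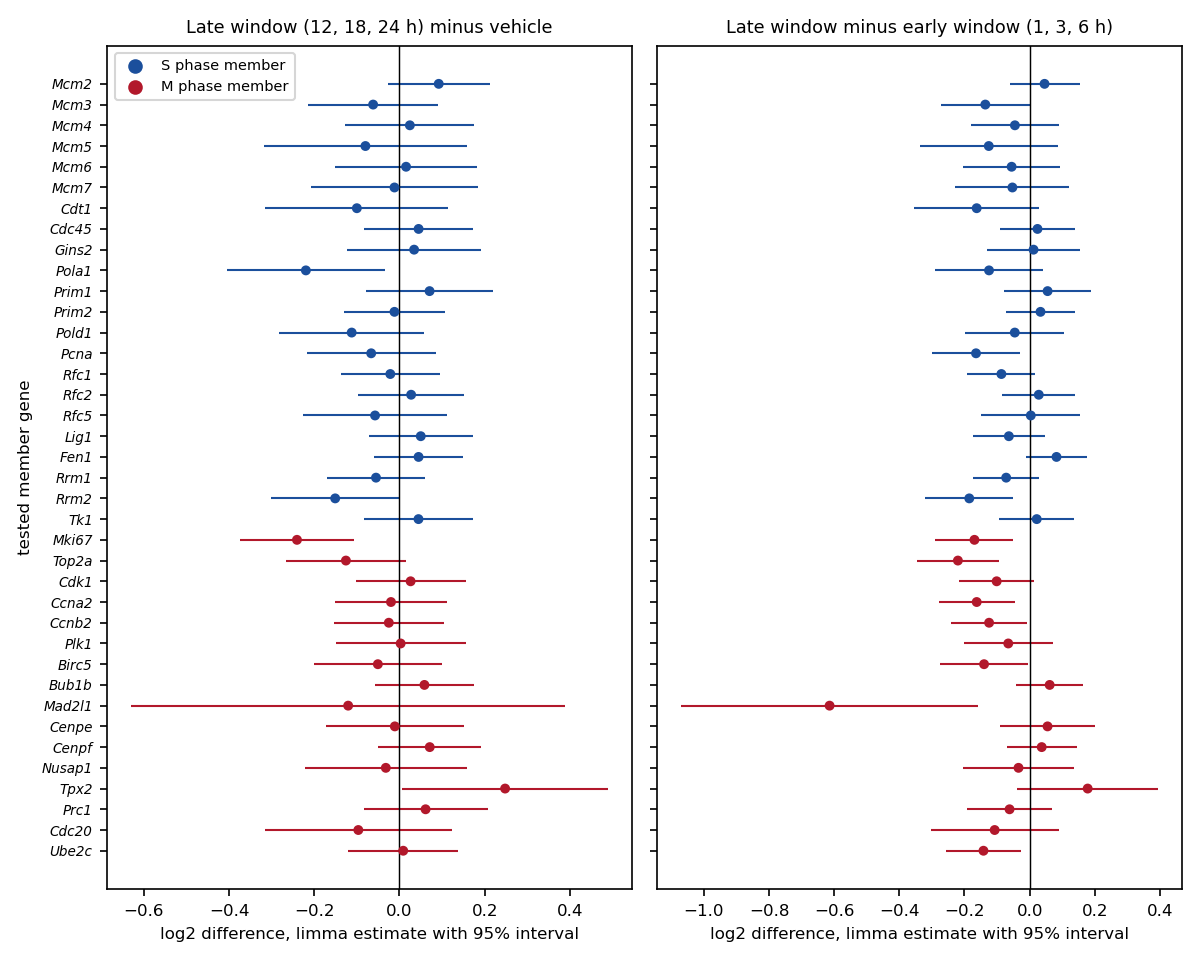
Each point is the limma log2 difference of 1 tested member with its 95% interval, in the late window minus vehicle (left) and in the late window minus the early window (right). On the left all points lie between -0.24 and 0.25, and on the right Mad2l1 (-0.61) stands apart from the other 37.

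Further genes of the same pathways were counted beside the members. Of 51 other DNA replication genes, 48 were measured and 32 tested, and of 70 other mitosis genes, 70 were measured and 30 tested. In limma 0 genes of either list passed in any of the 4 comparisons, and the list medians over all measured genes lay between -0.02 and 0.04 in each. Dck, a nucleoside kinase of the salvage pathway, stood at -0.32 from the vehicle mean at 6 h on the log2 scale, and Pold2, a subunit of polymerase delta, at 0.28 at 12 h. Smc4, a condensin subunit, was -0.39 at 18 h and -0.34 at 24 h, and Hmgb2, a chromatin protein of dividing cells, -0.26 at 24 h.

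Upstream of S phase, 12 of 13 genes of G1 entry and 17 of 20 genes of quiescence or Cdk inhibition were tested, and 0 passed in limma in any comparison. Myc, which drives growth and G1 entry, was 0.22, 0.39, 0.21, 0.17, -0.22 and -0.14 from the vehicle mean over the 6 times on the log2 scale. Ccnd2, a D-type cyclin, reached -0.18 at 24 h. Cdkn1a, which encodes the Cdk inhibitor p21, stood at 0.42 on the 3 h array and within 0.06 on each late array, and Cdkn1c, which encodes p57, was lowest at 12 h (-0.46). At 3 h the high values of Mad2l1, Myc and Cdkn1a stood on 1 and the same array.

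Lymphocyte, luminal, myoepithelial and skeletal muscle marker lists had medians farther from vehicle than the members did on some E2 arrays. B lymphocyte markers (13 of 16 measured) had a median of -0.42 at 18 h and -0.41 at 24 h on the log2 scale, with all 13 below the vehicle mean on both arrays, and -0.13 and 0.13 on the vehicle arrays. Their summed intensity ran from 15900.2 to 23848 on the E2 arrays, against 19707 and 23864 on the vehicle arrays. T lymphocyte markers (13 of 16 measured) had medians of -0.34 and -0.31 at 18 and 24 h, and summed intensities of 6089 to 7804 on E2 arrays, against 7038 and 7997 on vehicle arrays. Of the 38 tested members, 16 lay below both vehicle arrays at 18 h and 18 at 24 h (background 44.2% and 46.4%). Above both lay 11 and 15 at these times (background 27.2% and 29.0%). At 12 h the B and T lymphocyte medians were 0.13 and 0.02 on the log2 scale. On that array 12 of the 38 tested members lay above both vehicle arrays and 13 below both (background 37.9% and 25.2%). The cause of the 12 h values was not tested. Germinal centre B cell markers (7 of 8 measured) had medians within 0.04 on every array, but only 3 of them were at or above the level tested. With the B lymphocyte mean as a covariate in limma, the late difference was -0.21 for Mki67 (-0.24 without it), -0.16 for Pola1 (-0.22), -0.11 for Rrm2 (-0.15) and 0.13 for Tpx2 (0.25). The late 95% interval of Mki67 was then -0.35 to -0.07 (limma adjusted p 0.543), and those of Pola1, Rrm2 and Tpx2 included 0. For the 18 and 24 h arrays the difference was -0.16 for Mki67 (-0.26 without the covariate), -0.05 for Pola1 (-0.25), -0.08 for Rrm2 (-0.18) and -0.03 for Tpx2 (0.31), with 95% intervals that include 0 for all 4. The B lymphocyte markers were low on these same arrays, so the covariate and this group are in part confounded. Macrophage (9 of 9 measured), endothelial (8 of 8) and erythroid markers (4 of 8) had medians between -0.10 and 0.14 on the E2 arrays.

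Luminal epithelial markers (17 of 18 measured) rose in 3 cases in the late window relative to the early one, Krt8 by 1.15, Cldn3 by 0.46 and Elf3 by 0.32 on the log2 scale (limma adjusted p 0.0406 each). Without the 18 h or the 24 h array, 0 genes passed in that comparison. Their median was 0.39, 0.22 and 0.18 at 12, 18 and 24 h, and their summed intensity was 12708 to 19241 on E2 arrays, against 13842 and 13979 on vehicle arrays. Skeletal muscle markers (17 of 17 measured) had medians from 0.21 at 12 h to 1.249 at 6 h on E2 arrays, against 0.21 and -0.21 on vehicle arrays, and summed intensities of 17103 to 35161, against 16546 and 12503. Of the E2 arrays, the 12 h array had the lowest muscle median and the highest luminal median. Its muscle median equalled that of vehicle 1 at this precision. On the 12 h array 9 of 16 tested M phase genes lay below both vehicle arrays (background 25.2%). Whether tissue content has a part in this count was not tested. With the muscle mean as a covariate, the early M phase median was 0.00 in place of 0.08. The muscle markers were themselves higher in the early window than in vehicle, with a median of 0.93 on the log2 scale. This covariate and the early comparison are therefore in part confounded, and the part of muscle in the members' values was not tested. Myoepithelial markers (8 of 8 measured) had medians of 0.18, 0.24, 0.14, 0.22, 0.21 and 0.06 over the 6 times, against -0.05 and 0.05 on the vehicle arrays, with 7 or 8 of the 8 above the vehicle mean on every E2 array. Fat markers (8 of 10 measured) had medians of -0.08 to 0.09. Summed intensities were at least 5117 for myoepithelium and 55638 for fat on every array. The part of the myoepithelial markers in the members' values was not tested.

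**Figure D4:**
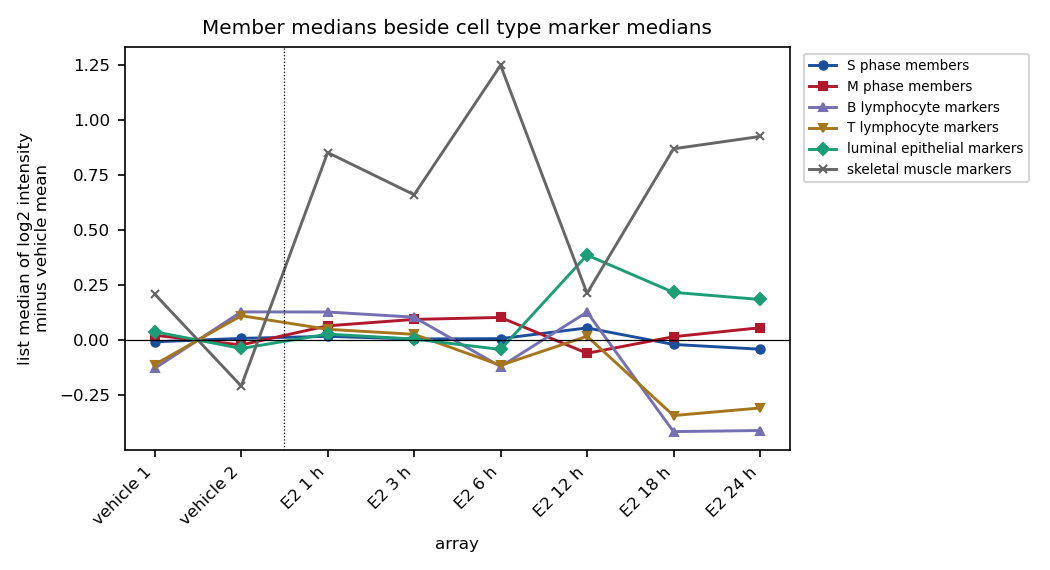
Points are the median over each gene list of log2 intensity minus the vehicle mean, on the 8 arrays. The S and M phase medians stay between -0.06 and 0.10 on the E2 arrays, while the B lymphocyte median reaches -0.42 at 18 h, the luminal median 0.39 at 12 h and the skeletal muscle median 1.249 at 6 h.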

How the data were processed

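Mammary gland RNA was measured on 8 Affymetrix arrays with 1 colour, 2 of vehicle and 6 of E2. The deposited values were intensity values on a linear scale for 45101 probe sets; per the submitters' processing notes GCOS 1.0 and RMA were used, with no role or order given. Array medians of 173.9 to 180.49 show that the authors had put the arrays on one scale, so the deposited intensity values were put on the log2 scale with no further normalization. The 64 control probe sets were left out. By their annotation, 34945 probe sets carried 1 gene symbol, 932 several and 9160 none, and symbols checked against RefSeq (GRCm38.p6) needed 0 updates. Of a gene's probe sets, the brightest over the 8 arrays was read.

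Groups came from the sample titles. Fits used limma 3.58.1 in R 4.3.3 (statmod 1.5.0 for the robust variant) with a mean-variance trend, two-sided p-values and Benjamini-Hochberg adjustment over the 10916 genes at or above the 40th percentile, with a threshold of 0.05. The 18 and 24 h comparison used 4 groups over all 8 arrays. The fits were tested on simulated data. Medians of gene lists are over all measured genes, from a fit without the level filter. Precision is limited by how few arrays there are, and no detection calls were used here.

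Arrays were printed in full for a set of canonical genes, for the 8 members farthest from vehicle and for the member of each role with the smallest late p, and other lists by their called genes or else the 2 farthest from vehicle. The members, gene lists and this rule were chosen with earlier results of these data known. The sequences are RefSeq's. Alternatives were other filters, normalizations, probe set and variance settings, array weights, marker covariates, a slope on log2 hours, 7 group means, and each array left out.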

Additional observations from a re-analysis of the deposited data

Results flagged for a closer look

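For 3 of the 51 measured genes every early array lay on one side of both vehicle arrays and every late array on the other side. The share of all tested genes that did so was not counted. Singly, the early arrays lay above vehicle for 13.7% of tested genes and below for 6.23%. The late arrays lay above for 11.1% and below for 13.3%. Mad2l1 had a late minus early difference of -0.61 on the log2 scale, with early arrays above and late arrays below vehicle, and an adjusted p of 0.172 in limma. Fen1 differed by 0.082, with early arrays below and late arrays above vehicle and an adjusted p of 0.313 in limma, and its second probe set had the opposite signs. Cdc6 differed by 0.17 in the same direction as Fen1, on a probe set below the level tested, so that its difference has no adjusted p over the tested genes.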

How the results depend on the processing

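No member passed the limma threshold in the early window, the late window or the 18 and 24 h comparison under any alternative run. For the late against the early window the count was 7 with array weights, where 2214 of all tested genes passed, and 1 with the skeletal muscle mean as a covariate, where 775 passed; the cause was not tested. It was 0 under the other alternatives, and 0 without each array in turn, while the count of all genes, 60 in the main setting, ran from 0 (without the 18 h or the 24 h array) to 232 (without the 1 h array). Member values more than 0.32 (log2) from both vehicle arrays numbered 1, as they did at 1.5-fold and 2-fold. With any distance there were 202, since that setting has no minimum. Without vehicle replicate 1 there were 9, namely Mad2l1 at 3 h, Ttk at 6 h, Pold1 at 18 h, Tpx2 at 18 and 24 h, and Mcm5, Pola1, Rfc3 and Mki67 at 24 h, and without vehicle replicate 2 there was 1. The share of all tested genes against a single vehicle array was not counted. The M phase median difference ran from 0.00 to 0.11 in the early window and -0.06 to 0.13 in the late window. Between the windows it ran from -0.13 to 0.06, with the luminal covariate turning its sign. Luminal markers themselves differed between the windows, so that covariate is in part confounded with this comparison. For 18 and 24 h the M phase range was -0.02 to 0.09. The S phase median ran from -0.12 to 0.04 in the late window and -0.15 to 0.02 between the windows. Mad2l1 at 3 h was also refitted under 7 settings chosen after seeing the data. It stayed between 1.08 and 1.10, with limma adjusted p-values of 0.00239 to 0.0205, except 2.9e-22 with arrays centred on their median, where limma's prior degrees of freedom were infinite. No paired analysis was possible because each E2 time had 1 array, so an E2 time shared at most 1 replicate number with vehicle, fewer than a block needs.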
